A study of Mus musculus with 27 samples.

Results

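The genes described here are 9 transcription factors of haematopoietic progenitors and erythroleukaemia: *Myb*, *Myc*, *Gata2*, *Fli1*, *Runx1*, *Erg*, *Lyl1*, *Meis1* and *Spi1*, which the gene annotation used for positions lists under its older symbol *Sfpi1*. They were taken from the tables by symbol. All 9 were found in each of the 5 RNA-Seq tables, among 20602 gene symbols in the series. For 8 of them the reads sufficed for a test in every comparison, and *Erg* passed the filter on low counts in none.

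The study knocked down co-repressors in mouse erythroleukaemia (MEL) cells, a line of transformed erythroid progenitors, and sequenced their polyadenylated RNA. The co-repressor ETO2, encoded by *Cbfa2t3*, was depleted by lentiviral hairpins sh2 and sh3, with 2 libraries each against 2 controls. IRF2BP2, a partner of ETO2, was depleted by hairpin sh1 (2 libraries against 2 controls), and the histone demethylase LSD1, encoded by *Kdm1a*, by a hairpin (2 libraries against 1 control). The repressor GFI1B was depleted by siRNA (2 libraries against 2 controls), and MEL cells induced to terminal erythroid differentiation (2 libraries) were compared with non-induced cells (2 libraries). The controls, labelled WT, received non-targeting hairpins or siRNAs, and per the study's methods all cells derive from the MEL clone C88, so every group is a state of 1 clonal line. The labels do not say which siRNA each *Gfi1b* library received. ChIP-Seq of IRF2BP2 and ETO2 gave 1 list of binding sites.

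MYB and MYC keep immature blood cells dividing, and both are shut down as erythroid cells mature. PU.1 (encoded by *Spi1*), FLI1 and ERG are ETS-family factors. Retroviral activation of *Spi1* or *Fli1* initiates Friend virus erythroleukaemia, the disease from which MEL cells derive. RUNX1 binds DNA together with CBFB, GATA2 precedes GATA1 on erythroid genes, LYL1 is a bHLH relative of TAL1, and MEIS1 is a homeodomain partner of HOX and PBX proteins in stem cells and megakaryocyte progenitors.

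Counted reads numbered 44519414 to 57684583 in the hairpin libraries and 9929311 to 19623105 in the *Gfi1b* and induction libraries, so that 3 reads amount to 0.0519 to 0.0676 and 0.149 to 0.302 CPM (counts scaled to library size), respectively. Levels below are CPM with TMM, a correction for library composition, made within each table. The knocked-down RNA fell from 413.7 ± 19 to 178.5 ± 54.7 CPM (mean ± SD) in *Cbfa2t3* KD. In *Irf2bp2* KD it went from 117.8 ± 2.61 to 93.57 ± 1.9 CPM, a log2 fold change of -0.33 (adjusted p = 0.00266, edgeR) that is smaller than the limit of 0.5 used here for a call. *Kdm1a* stood at 151.6 CPM in its control and at 16.89 and 16.34 in the KD libraries. *Gfi1b* did not follow its labels. It stood at 122.3 and 145.0 CPM in the controls, 215.8 in the library labelled *Gfi1b* KD replicate 1 and 76.46 in replicate 2, so *Gfi1b* KD results include a library whose target RNA was above both controls. Leaving out one or the other KD library turned the direction of *Myc*, *Gata2*, *Spi1* and *Meis1* and kept that of *Runx1*, *Fli1*, *Myb* and *Lyl1*. The study's methods call the replicates independent biological samples of this line, and the p-values measure the spread between those libraries. In *Cbfa2t3* KD the sh2 and sh3 libraries were tested as 1 group, so that spread includes the difference between hairpins. A separate term for each hairpin gave 900 called genes in place of 720, with 2 called factors either way.

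Erythroid identity was checked with 5 markers (*Gata1*, *Klf1*, *Epor*, *Tfrc*, *Alas2*), all detected. Their summed level was 1270 to 1300 CPM in the *Cbfa2t3* controls and 1720 to 2070 in the KD, with 3 of 5 raised (*Alas2* by 2.10 on the log2 scale). It went from 1060 to 1120 up to 2870 to 3090 in *Irf2bp2* KD (5 of 5 raised, *Alas2* by 3.28) and from 1680 to 1720 up to 2730 to 3400 on induction (4 of 5 raised). In *Kdm1a* KD the sum was 993 CPM against 1380 in the control, and 1 of 5, *Tfrc*, was lower by size. Of the megakaryocyte markers, 2 of 5 tested were raised in *Cbfa2t3* KD, 5 of 5 in *Irf2bp2* KD and 2 of 5 on induction, and 1 of 5 was lower in *Kdm1a* KD. Of all genes tested, 2.99% were raised in *Cbfa2t3* KD, 10.1% in *Irf2bp2* KD and 12.4% on induction, and in *Kdm1a* KD, by size alone, 9.8% were lower and 13.1% higher, so that nothing is read from its single markers. The summed level of the megakaryocyte markers was 370 to 423 CPM in the *Irf2bp2* controls and 798 to 830 in the KD. It was 390 to 531 CPM in non-induced cells and 1200 to 1330 in induced ones. In *Cbfa2t3* controls and KD it was 407 to 420 and 489 to 600 CPM, and in *Kdm1a* KD 280 to 339 against 342. Myeloid, mast cell and lymphoid markers summed to at most 1.11, 6.54 and 1.36 CPM in any library, and none of the 6 myeloid markers passed the filter. Of the others 1 mast cell marker (*Cpa3*) and 1 lymphoid marker (*Cd79a*) were higher by size in *Kdm1a* KD, from 0.02045 to 0.235 and from 0.1636 to 0.587 CPM. In these bulk libraries fewer cells of a type and less RNA per cell cannot be told apart, and the part of maturation in the changes described next was not tested.

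The list of binding sites holds 13229 regions: 1760 with ETO2 only, 2730 shared by ETO2 and IRF2BP2, and 8739 with IRF2BP2 only. A site was given to the gene with the nearest annotated start within 1 Mb. All 9 factors had at least 1 site, as did 45.1% of the 10902 tested genes that matched the annotation. They held 71 sites, of which 5 were ETO2-only, 20 shared and 46 IRF2BP2-only. Shared sites made up 28.2% of the factors' sites against 20.6% of all sites, and sites with ETO2 35.2% against 33.9%. *Runx1* alone held 10 of the 20 shared sites, and *Meis1*, *Spi1* and *Gata2* held none. The median enrichment over IgG was 6.5-fold against 7.33-fold. The nearest start is a rule of assignment and does not show which gene a site acts on. Under a limit of 100 kb *Runx1* kept 12 sites, *Myc* 9 and *Erg* 0.

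*Runx1* (chr16:92601712-92826311, minus strand, mm9) had 23 sites and *Myc* (chr15:61816946-61821929, plus strand) 20, numbers that 5 tested genes in all reached. The *Runx1* sites comprised 10 shared, 12 IRF2BP2-only and 1 ETO2-only, with 9 in its introns and 10 lying 303.6 to 371.4 kb upstream. For *Myc*, 17 of 20 were IRF2BP2-only, and the site with the highest enrichment (31.6-fold, shared) lay 235.9 kb downstream of its start. *Fli1* (chr9:32229793-32348974, minus strand) had 6 sites, including a shared one 0.3 kb upstream, and *Myb* (chr10:20844736-20880790, minus strand) had shared sites 60.6 and 35.8 kb upstream. *Erg* carried the most enriched site of the 71, a 48.0-fold IRF2BP2-only region in an intron, 149.8 kb into a gene with almost no RNA. *Meis1* (chr11:18780433-18918961, minus strand) had no shared site. Its ETO2-only site lay 184.8 kb upstream (17.5-fold), and an IRF2BP2-only site lay 23 bp upstream of its start (6.75-fold). *Spi1* (chr2:90922547-90955913, plus strand) had 3 IRF2BP2-only sites, and *Gata2* (chr6:88143885-88157024, plus strand) had 4 sites, none of them classed as shared. The ETO2-only site of *Gata2* (chr6:88152944-88153702) lay within the bounds of an IRF2BP2-only site (chr6:88152938-88154111). Its classes therefore do not show that the 2 proteins bind apart there. *Lyl1* (chr8:87225356-87228614, plus strand) had a shared site 232 bp downstream of its start (16-fold).

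**Figure D1:**
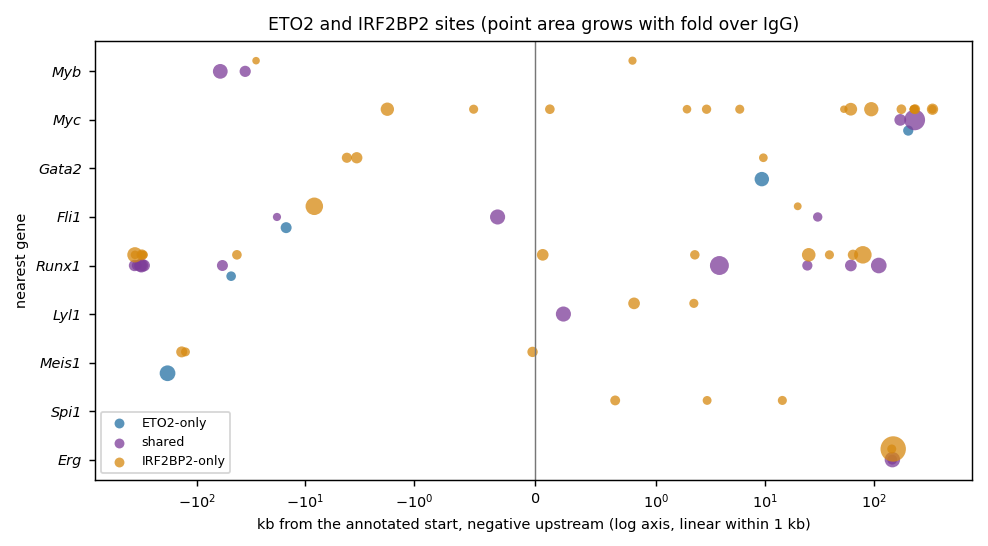
ETO2 and IRF2BP2 binding sites given to each factor, by distance in kb from the annotated start (log axis, linear within 1 kb, negative upstream). Colour is the site class and point area grows with fold enrichment over IgG. The 10 distant upstream sites of *Runx1* and the downstream sites of *Myc* stand out, and *Spi1* shows 3 IRF2BP2-only sites.

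GATA hexamers (AGATAA or TGATAA, and either of them with G as the last base) were searched on both strands in the 300 bases around each centre. They occurred in 51 of the 71 sites (71.8%) against 66.0% of all sites. They were in 19 of 20 shared and 28 of 46 IRF2BP2-only sites of the factors, against 93.1% and 52.4% of all sites of these classes. The composite motif, CTG followed after 6 to 8 bases by such a hexamer, is the signature of complexes that pair a bHLH factor with GATA1, and by construction contains a GATA hexamer. It occurred in 11 of 71 sites (15.5%) against 17.3% of all sites. RUNX hexamers (TGNGGT with N being T or C, both strands) occurred in 35.2% of the factors' sites and 35.5% of all sites. A match is a description of the sequence and not evidence of binding by that factor.

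For 6 of the factors the centre of the site with ETO2 that had the highest enrichment for that gene is shown, to let sites with and without the GATA signature be compared. A second, less enriched *Runx1* site (6.5-fold) is shown because it holds the composite within an intron, and the sites of *Erg* and *Lyl1* are not shown. Each is 151 bases of the plus strand of mm9, 5′ to 3′, with GATA hexamers and the CTG of a composite in capitals, or RUNX hexamers where there is no GATA hexamer.
*Myb*, chr10:20941282-20941432, shared, 60.6 kb upstream: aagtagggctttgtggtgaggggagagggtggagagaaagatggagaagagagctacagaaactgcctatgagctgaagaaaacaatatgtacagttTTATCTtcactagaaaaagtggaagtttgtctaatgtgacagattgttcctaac
*Myc*, chr15:62052739-62052889, shared, 235.9 kb downstream: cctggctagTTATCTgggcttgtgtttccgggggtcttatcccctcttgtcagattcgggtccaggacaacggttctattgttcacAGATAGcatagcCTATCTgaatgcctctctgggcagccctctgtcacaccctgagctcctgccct
*Gata2*, chr6:88153116-88153266, ETO2-only, intron: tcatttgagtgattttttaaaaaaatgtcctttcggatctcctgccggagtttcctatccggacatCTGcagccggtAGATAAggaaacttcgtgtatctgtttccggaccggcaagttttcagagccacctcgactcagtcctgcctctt
*Fli1*, chr9:32349211-32349361, shared, 0.3 kb upstream: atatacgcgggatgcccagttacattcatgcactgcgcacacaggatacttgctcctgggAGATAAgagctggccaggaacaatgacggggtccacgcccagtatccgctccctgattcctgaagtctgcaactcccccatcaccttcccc
*Runx1*, chr16:92822440-92822590, shared, intron: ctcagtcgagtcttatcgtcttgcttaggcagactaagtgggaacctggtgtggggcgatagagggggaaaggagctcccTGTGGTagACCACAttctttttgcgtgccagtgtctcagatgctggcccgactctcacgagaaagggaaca
*Runx1*, chr16:92801865-92802015, shared, intron: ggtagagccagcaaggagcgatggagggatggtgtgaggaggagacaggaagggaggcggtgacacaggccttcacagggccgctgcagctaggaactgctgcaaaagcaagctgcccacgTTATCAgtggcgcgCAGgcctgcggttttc
*Meis1*, chr11:19103649-19103799, ETO2-only, 184.8 kb upstream: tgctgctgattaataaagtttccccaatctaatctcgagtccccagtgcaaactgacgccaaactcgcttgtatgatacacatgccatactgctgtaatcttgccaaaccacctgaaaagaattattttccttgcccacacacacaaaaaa
The *Gata2* and the second *Runx1* sequence hold the composite. The first *Runx1* sequence, from its most enriched site (26.0-fold), holds a pair of facing RUNX hexamers, and the *Meis1* sequence holds none of the hexamers.

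On the authors' RPKM, which divides by transcript length and so permits comparison between genes, *Myc* was the most abundant factor in 20 of 21 libraries. Its median over the 9 control and non-induced libraries was 205.7 RPKM (range 128.2 to 261.9), followed by *Myb* at 84.1 (70.35 to 111.9) and *Spi1* at 64.6 (32.43 to 99.81). *Lyl1* followed at 35.78, *Runx1* at 17.27, *Fli1* at 14.1, *Meis1* at 12.08 and *Gata2* at 4.834. Neighbours in this order from *Myb* down to *Gata2* overlapped in range, while the lowest *Myc* value lay above the highest *Myb* value. *Runx1* was first in 1 library, induced MEL replicate 2.

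**Figure D2:**
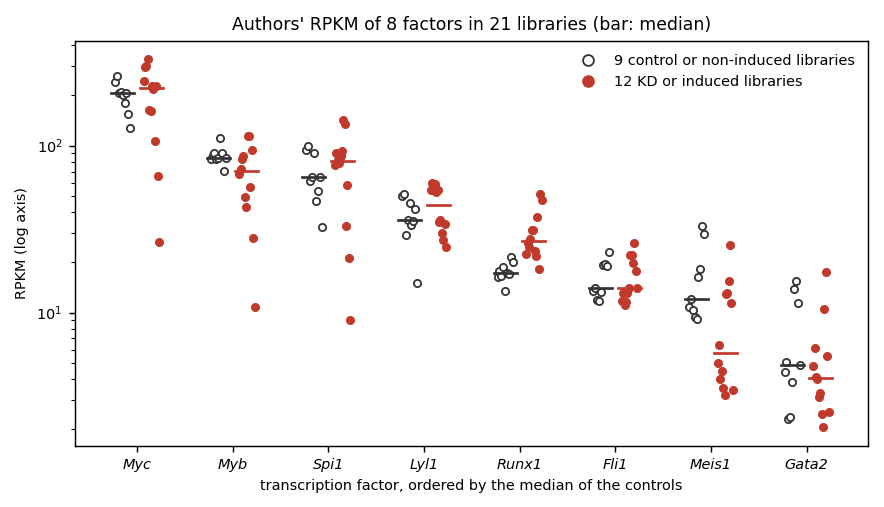
The authors' RPKM (log axis) of 8 factors, with 1 point per library for 9 control or non-induced and 12 KD or induced libraries, and bars at the medians. *Myc* is the highest in controls, with a median of 205.7 RPKM, and *Gata2* the lowest at 4.834.

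Calls required an adjusted p no higher than 0.05 in the quasi-likelihood test of edgeR, corrected over every gene tested by the Benjamini-Hochberg procedure, together with a log2 fold change of 0.5 or more in either direction. *Cbfa2t3* KD changed 2 of 8 tested factors, *Runx1* up and *Meis1* down, against a background of 5.74% of 12537 genes (2.99% raised, 2.75% lowered). *Irf2bp2* KD changed 6 of 8, with *Runx1*, *Lyl1*, *Spi1* and *Gata2* raised and *Myb* and *Meis1* lowered, against 22.5% of 12329 genes (10.1% raised, 12.5% lowered). Induction changed 5 of 8, with *Runx1* raised and *Myb*, *Myc*, *Meis1* and *Spi1* lowered, against 27.2% of 11713 genes (12.4% raised, 14.8% lowered). With a single control, *Kdm1a* KD was read by size alone: both KD libraries had to differ from the control by 0.5 or more the same way. By that rule *Fli1*, *Runx1* and *Spi1* were higher and *Gata2* was lower, 4 of 8, against 22.9% of 12628 genes (13.1% higher, 9.8% lower). In *Gfi1b* KD edgeR called 0 of 8 factors and 0% of 11190 genes. At an unadjusted p under 0.05 it had 784 genes (7.01%), none of them a factor, and DESeq2 called 59 genes.

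**Figure D3:**
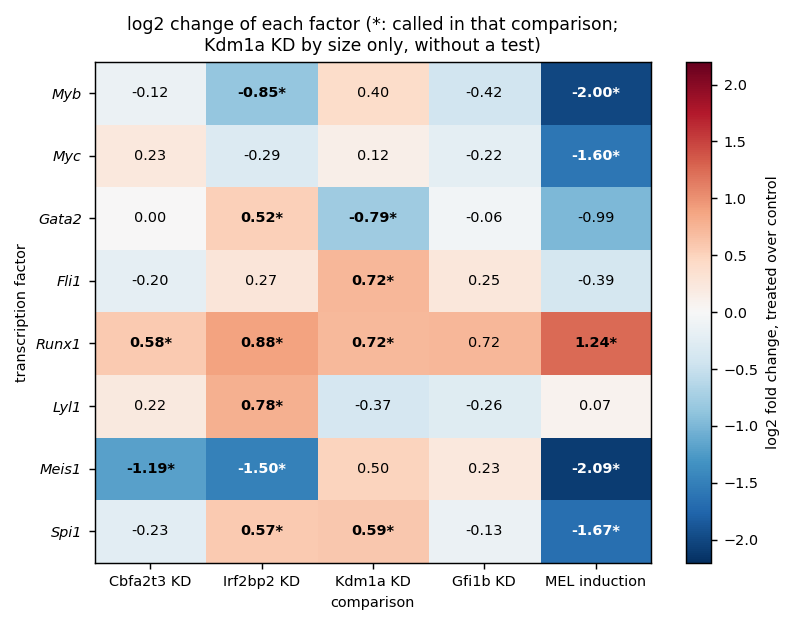
Log2 fold change of each factor (rows) in the 5 comparisons (columns), colour from lower to higher than control. *Runx1* is above 0 in every column, from 0.58 in *Cbfa2t3* KD to 1.24 on induction, although in *Gfi1b* KD its 0.72 did not pass (adjusted p = 0.704, edgeR), and *Meis1* spans -2.09 on induction to 0.50 in *Kdm1a* KD.

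*Myb*, the factor that holds progenitors in cycle, was most clearly lowered by *Irf2bp2* KD and by induction. It stood at 319.4 and 291.1 CPM in the *Irf2bp2* controls and at 181.0 and 158.8 in the KD libraries, without overlap (log2 fold change -0.85, SE 0.0918, adjusted p = 1.21e-06, edgeR). In non-induced cells it stood at 241.9 and 298.3 CPM and after induction at 96.95 and 38.29 (log2 fold change -2.0, SE 0.355, adjusted p = 0.00143, edgeR). The induced libraries differed from each other by more than the non-induced ones. In *Cbfa2t3* KD its levels were 291.4 and 308.5 CPM in the controls, 239.7 and 257.7 with sh2, and 295.5 and 308.7 with sh3. The sh3 libraries overlapped the controls and the sh2 libraries lay below them, and the joint change of -0.12 did not pass (adjusted p = 0.489, edgeR). *Kdm1a* KD gave 389.9 and 400.4 CPM against 299.4 in the control, a difference of 0.40 on the log2 scale that missed the size limit.

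*Myc*, the driver of ribosome production and growth, fell on induction from 359.3 and 313.6 CPM to 156.8 and 65.59 (log2 fold change -1.60, SE 0.337, adjusted p = 0.00395, edgeR). In *Irf2bp2* KD it went from 488.1 and 492.5 CPM to 400.6 and 399.2. These groups did not overlap, but the change of -0.29 was below the size limit (SE 0.085, adjusted p = 0.00917, edgeR). The *Cbfa2t3* controls held 570.7 and 624.1 CPM, the sh2 libraries 585.1 and 709.0, and the sh3 libraries 721.5 and 792.5. The sh2 libraries overlapped the controls (joint change 0.23, adjusted p = 0.216, edgeR). In *Kdm1a* KD *Myc* was at 540.7 and 521.0 CPM against 487.8 in the control.

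*Spi1*, whose product PU.1 opposes GATA1, moved in opposite directions in *Irf2bp2* KD and on induction. It rose from 80.97 and 84.8 CPM to 118.0 and 128.0 in *Irf2bp2* KD (log2 fold change 0.57, SE 0.083, adjusted p = 2.92e-05, edgeR) and fell from 83.68 and 44.07 to 27.87 and 12.48 on induction (log2 fold change -1.67, SE 0.381, adjusted p = 0.00635, edgeR). The non-induced libraries differed widely. Without non-induced replicate 1 the fall was -1.14 with adjusted p = 0.106, the highest of a range from 5.65e-07 over the alternatives. *Cbfa2t3* KD gave 124.8 and 132.2 CPM in the controls, 102.1 and 120.3 with sh2, and 109.5 and 105.3 with sh3, all 4 below both controls. The change of -0.23 was under the size limit and did not pass (adjusted p = 0.0792, edgeR). Its adjusted p was 0.0211 with a separate term for each hairpin and 0.0554 without the filter on low counts (edgeR). In *Kdm1a* KD it stood at 186.0 and 180.3 CPM against 121.5, a log2 difference of 0.59.

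*Fli1*, an ETS activator of megakaryocyte genes, was called in none of the tested comparisons. By size it was higher in *Kdm1a* KD, at 69.27 and 70.23 CPM against 42.26 in the control (log2 difference 0.72). The *Irf2bp2* controls held 37.33 and 36.71 CPM and the KD libraries 42.53 and 46.44, without overlap and below the size limit (log2 fold change 0.27, adjusted p = 0.0187, edgeR). All 4 *Cbfa2t3* KD libraries (37.08 and 41.52 with sh2, 35.56 and 37.04 with sh3) lay below the controls at 42.51 and 44.48 CPM. The change of -0.20 was under the size limit and did not pass (adjusted p = 0.134, edgeR). Its adjusted p was 0.0357 with a separate term for each hairpin and 0.152 without the filter on low counts (edgeR). Induction gave 55.8 and 45.74 CPM against 58.72 and 74.77 (log2 fold change -0.39, adjusted p = 0.266, edgeR). *Erg*, its closest relative, had at most 7 reads and at most 0.336 CPM in any library, a level at which a difference was not detectable.

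*Runx1*, the regulator of definitive blood formation, was the one factor with an estimate above 0 in every comparison, though in *Gfi1b* KD, where it did not pass, its size rests on 1 library (0.13 without replicate 1). It rose from 94.86 and 102.4 CPM to 130.4 and 154.7 with sh2 and 144.7 and 160.2 with sh3 against *Cbfa2t3* (log2 fold change 0.58, SE 0.0871, adjusted p = 0.00366, edgeR). All 4 KD libraries were above both controls. Without control replicate 1 the change was 0.52 with adjusted p = 0.081, the highest of a range from 7.87e-08 over the alternatives. In *Irf2bp2* KD it rose from 95.55 and 106.8 CPM to 185.4 and 187.3 (log2 fold change 0.88, SE 0.0853, adjusted p = 3.39e-07, edgeR), and on induction from 120.9 and 118.1 to 288.4 and 276.5 (log2 fold change 1.24, SE 0.234, adjusted p = 0.00215, edgeR). Neither comparison showed overlap. *Kdm1a* KD gave 133.5 and 125.9 CPM against 78.97 (log2 difference 0.72).

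*Gata2*, the GATA factor of early progenitors, had the lowest median RPKM of the tested factors in control libraries. Its control levels differed between tables, from 7.394 CPM in an *Irf2bp2* control to 49.79 in a *Gfi1b* control. In the authors' RPKM these libraries stood at 2.305 and 15.47, and the cause of the difference was not tested. It rose in *Irf2bp2* KD from 7.394 and 7.587 CPM to 10.28 and 11.14 (log2 fold change 0.52, SE 0.124, adjusted p = 0.0026, edgeR), just past the size limit. Without KD replicate 2 the change was 0.46, under that limit. It was lower by size in *Kdm1a* KD, at 7.838 and 6.673 CPM against 12.53 (log2 difference -0.79). In *Cbfa2t3* KD the sh2 libraries (15.47 and 19.87 CPM) and sh3 libraries (13.33 and 12.94) lay on either side of the control mean, and the joint change was 0.00 (adjusted p = 0.99, edgeR). The induced libraries at 17.7 and 8.438 CPM overlapped the non-induced ones at 35.76 and 15.98 (log2 fold change -0.99, adjusted p = 0.0952, edgeR). The change was called with the replicate block (-0.97, adjusted p = 0.0172), without the filter on low counts and without induced replicate 1 (-1.63), and was -0.30 without non-induced replicate 1, with adjusted p from 0.00212 to 0.712 over the alternatives (edgeR).

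*Lyl1*, which can stand in for TAL1 in stem cells, was called in *Irf2bp2* KD and in no other tested comparison. It rose from 51.8 and 63.05 CPM to 96.33 and 101.0 (log2 fold change 0.78, SE 0.0947, adjusted p = 4.29e-06, edgeR). The 4 *Cbfa2t3* KD libraries, 98.16 and 107.8 with sh2 and 106.2 and 105.4 with sh3, were all above the controls at 88.64 and 91.12 CPM. That change of 0.22 was under the size limit and did not pass (adjusted p = 0.0519, edgeR). Its adjusted p was 0.0115 with a separate term for each hairpin and 0.0759 without the filter on low counts (edgeR). *Kdm1a* KD gave 61.61 and 64.5 CPM against 81.65 (log2 difference -0.37). The induced libraries, at 60.44 and 45.67 CPM, lay between the non-induced ones at 73.37 and 27.42.

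*Meis1*, the homeodomain factor of stem cells, had the largest falls of the factors in *Cbfa2t3* KD and *Irf2bp2* KD, and on induction fell by about as much as *Myb*. It fell from 36.88 and 41.29 CPM to 17.27 and 22.14 with sh2 and to 13.79 and 15.34 with sh3 against *Cbfa2t3* (log2 fold change -1.19, SE 0.16, adjusted p = 0.00219, edgeR). In *Irf2bp2* KD it fell from 35.19 and 31.65 CPM to 12.35 and 11.39, a mean level 2.82-fold lower (log2 fold change -1.50, SE 0.103, adjusted p = 4.93e-09, edgeR). On induction it fell from 111.1 and 104.1 CPM to 38.52 and 12.13 (log2 fold change -2.09, SE 0.396, adjusted p = 0.0022, edgeR). Without induced replicate 1 the change was -3.16, and without replicate 2 it was -1.47. No treated library overlapped a control in these comparisons. In *Kdm1a* KD it stood at 43.84 and 45.16 CPM against 31.55, a mean log2 difference of 0.50 with 1 library under the size limit.

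**Figure D4:**
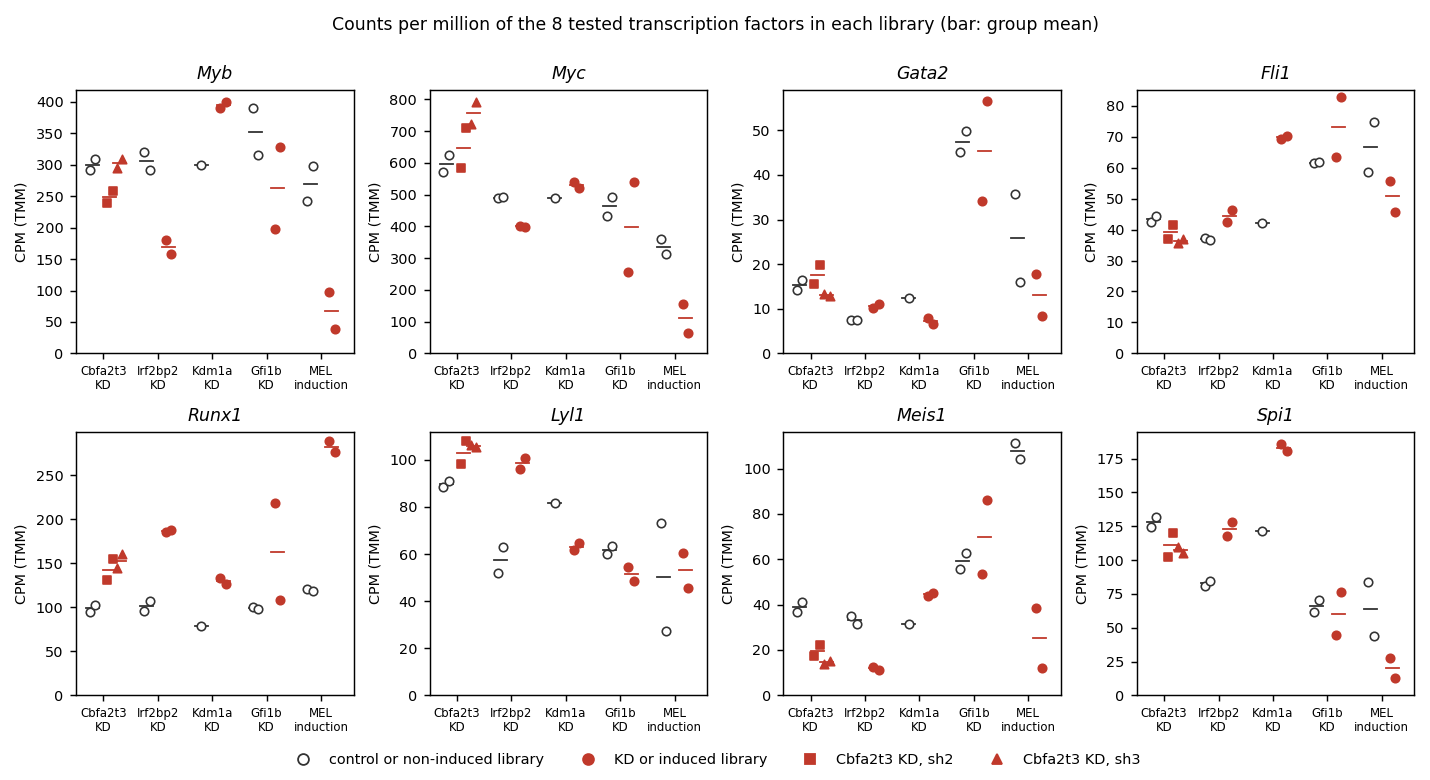
TMM-scaled CPM of the 8 tested factors in each of 21 libraries, 1 panel per factor and 1 column per comparison (open, control or non-induced; filled, KD or induced; squares sh2, triangles sh3; bars, group means). *Meis1* falls from 36.88 and 41.29 CPM to between 13.79 and 22.14 in *Cbfa2t3* KD, and the *Gfi1b* KD libraries lie far apart for *Runx1*, at 218.3 and 108.1 CPM.

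The SD between the *Gfi1b* KD libraries was larger than that between their controls for all 8 tested factors. *Runx1* was at 218.3 CPM in the library labelled *Gfi1b* KD replicate 1 and at 108.1 in replicate 2, with controls at 99.87 and 97.76. *Myb* was at 198.3 and 328.6 CPM against 390.1 and 315.0, and *Myc* at 256.1 and 540.1 against 433.9 and 492.7. In replicate 1, where *Gfi1b* was above the controls, *Runx1* differed from the control mean by 1.14 and *Myb* by -0.82 on the log2 scale. In replicate 2, where *Gfi1b* was below the controls, they differed from it by 0.13 and -0.09. The summed erythroid markers of these KD libraries ranged from 1100 to 2660 CPM, against 1050 to 1160 in the controls, and the megakaryocyte markers from 180 to 914 against 229 to 294. Their part in these differences was not tested. Without KD replicate 2 the log2 changes of *Myb*, *Myc*, *Runx1* and *Spi1* were -0.85, -0.87, 1.12 and -0.59. Without KD replicate 1 they were -0.10, 0.22, 0.13 and 0.20. Those of *Gata2*, *Fli1*, *Lyl1* and *Meis1* were -0.49, 0.02, -0.20 and -0.17 without replicate 2. They were 0.25, 0.42, -0.35 and 0.54 without replicate 1. The KD group is then 1 library, and the spread comes from the 2 controls alone, so only sizes are given here. The library labelled replicate 1 held *Spi1* at 44.54 CPM, *Gata2* at 34.26 and *Meis1* at 53.39, below both controls (61.83 and 70.65, 45.03 and 49.79, 55.86 and 62.68). Replicate 2 held them at 76.29, 56.5 and 86.23 CPM, above both controls. *Fli1* was at 63.35 and 82.66 CPM against 61.41 and 61.68, and *Lyl1* at 54.35 and 48.51 against 59.98 and 63.49. *Gata2*, *Fli1*, *Lyl1* and *Meis1* had adjusted p from 0.78 to 0.968 with both libraries (edgeR).

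**Figure D5:**
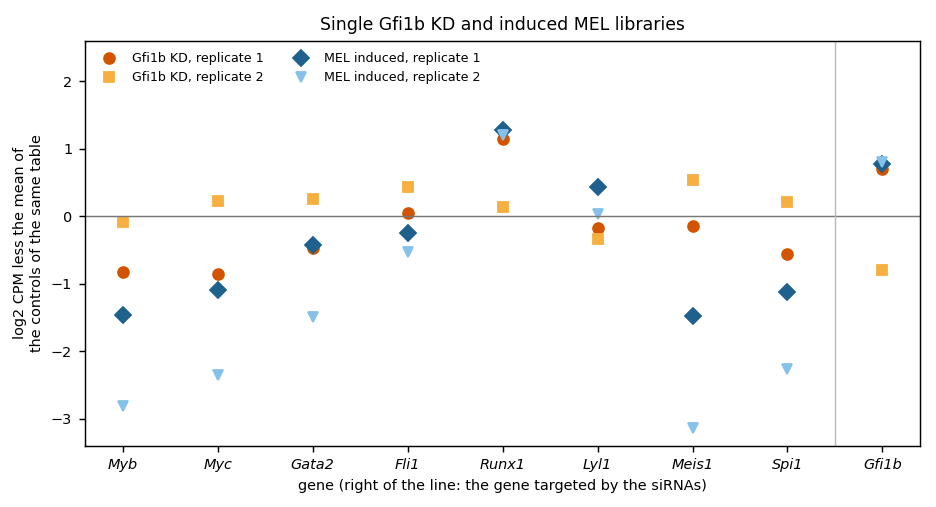
Log2 difference of each factor from the control mean in single *Gfi1b* KD and induced MEL libraries. *Runx1* is at 1.14 in the library labelled *Gfi1b* KD replicate 1 and at 0.13 in replicate 2.

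The hairpins against *Cbfa2t3* were compared with each other, with 3.71% of 12537 genes called. They left *Cbfa2t3* at 202.1 and 243.5 CPM (sh2) and 123.1 and 145.3 (sh3). No factor was called, since every difference was under 0.5, but 3 had an adjusted p under 0.05 (edgeR): *Myb* was 0.28 higher with sh3 (adjusted p = 0.0126), and *Gata2* and *Meis1* differed by -0.43 each (adjusted p = 0.034 and 0.0326). Without sh2 replicate 2 the differences of *Gata2* and *Meis1* shrank to -0.24 each and missed that limit. Without sh3 replicate 1 or 2 they missed it with differences of -0.45 and -0.41 for *Gata2* and -0.36 and -0.52 for *Meis1*. Without sh2 replicate 1 they grew to -0.60 each and were called (adjusted p = 0.00275 and 0.0023, edgeR). Without sh3 replicate 2 *Myb* missed the limit on p too. Over the alternatives their adjusted p ranged from 0.00159 to 0.205 for *Gata2*, 0.000263 to 0.183 for *Meis1* and 0.00022 to 0.101 for *Myb*. With the replicate block *Myc* had an adjusted p under 0.05 as well (0.23, adjusted p = 0.00377 in a range of 0.00377 to 0.494, edgeR). *Meis1* fell with each hairpin alone, by 0.99 with sh2 and 1.43 with sh3, and *Runx1* rose by 0.53 and 0.63.

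Differences between KDs were tested in 1 fit of all 21 libraries, in which the lone *Kdm1a* control is assumed to vary like the rest. The change of *Fli1* was 0.94 higher in *Kdm1a* KD than in *Cbfa2t3* KD (SE 0.223, adjusted p = 0.0222, edgeR; 5.5% of 14175 genes called). The change of *Meis1* was 2.0 higher in *Kdm1a* KD than in *Irf2bp2* KD (SE 0.544, adjusted p = 0.0298, edgeR; 9.21% called). For *Meis1* in *Kdm1a* KD against *Cbfa2t3* KD the difference of 1.71 did not pass (SE 0.511, adjusted p = 0.0636, edgeR), but DESeq2 called it (1.70, adjusted p = 0.0139, in a range of 1.02e-06 to 0.0644 over the alternatives). No factor passed for *Irf2bp2* KD against *Cbfa2t3* KD (1.35% called) or *Gfi1b* KD against *Cbfa2t3* KD (2.6% called) in edgeR. DESeq2 called *Meis1* in the latter (1.43, adjusted p = 0.0312, in a range of 0.0312 to 0.095). This fit includes the discordant *Gfi1b* and induced libraries. With only the libraries of the KDs being compared, fewer of all genes were called between *Gfi1b* KD and *Cbfa2t3* KD (0.523%). In the comparisons without *Gfi1b* KD far more were called by such a fit: 16.8% between *Irf2bp2* KD and *Cbfa2t3* KD, 26.2% between *Kdm1a* KD and *Cbfa2t3* KD and 33.2% between *Kdm1a* KD and *Irf2bp2* KD. In that fit *Myb*, *Myc*, *Gata2*, *Lyl1* and *Spi1* were called between *Irf2bp2* KD and *Cbfa2t3* KD, with differences of -0.71, -0.52, 0.53, 0.57 and 0.81. Between *Kdm1a* KD and *Cbfa2t3* KD it also called *Meis1* (1.71), *Myb* (0.54), *Gata2* (-0.77), *Lyl1* (-0.58) and *Spi1* (0.83). Between *Kdm1a* KD and *Irf2bp2* KD it also called *Myb* (1.23), *Gata2* (-1.32) and *Lyl1* (-1.17).

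Partners and known targets of the factors were followed in lists, whose counts stand against the share of all genes called: 5.74% in *Cbfa2t3* KD, 22.5% in *Irf2bp2* KD, 22.9% by size in *Kdm1a* KD and 27.2% on induction. *Cbfb*, which encodes the DNA-binding partner of RUNX1, fell while *Runx1* rose: by 0.84 in *Cbfa2t3* KD, 1.54 in *Irf2bp2* KD and 2.15 on induction (adjusted p = 0.00334, 1.33e-08 and 0.00125, edgeR). In *Kdm1a* KD it was higher by 0.95, at 98.66 CPM against 51.16. Of 2 RUNX and CBF genes tested, 1 was called in each KD except *Gfi1b* and 2 on induction, where *Runx3* was at -0.96. Among 12 partners of GATA2 and LYL1, 1 was raised and 1 lowered in *Cbfa2t3* KD, 4 and 2 in *Irf2bp2* KD, 0 and 3 in *Kdm1a* KD by size, a share close to the background, and 4 and 1 on induction. *Tal1*, the bHLH partner of GATA1, rose by 0.57, 1.34 and 1.83 in *Cbfa2t3* KD, *Irf2bp2* KD and induction, and was lower by size in *Kdm1a* KD at -0.90, where *Lmo2* was at -0.80. *Tcf4*, a bHLH partner of TAL1 and LYL1, fell by 0.60 in *Cbfa2t3* KD and 1.44 in *Irf2bp2* KD, and *Lmo2* fell by 1.53 on induction.

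Of 15 genes known to be activated by MYC, 13 were lowered on induction (median log2 fold change -1.11, against -0.02 over all genes, of which 14.8% were lowered), with *Fbl*, a nucleolar methyltransferase, and the spermidine synthase gene *Srm* both at -2.0. None was called in *Cbfa2t3* or *Kdm1a* KD, and 1 was raised and 2 lowered in *Irf2bp2* KD, with *Npm1* at -0.77 and *Ldha* at -0.69. Of 7 MYB targets, 2 were raised and 4 lowered on induction, against 12.4% and 14.8% of all genes, including the receptor gene *Kit* at -4.28 and *Mybl2* at -1.59. The counts were 1 and 1 in *Cbfa2t3* KD (*Klf1* 0.51, *Kit* -0.82), 1 and 2 in *Irf2bp2* KD (*Klf1* 1.04, *Cdk6* -1.04), and 0 and 3 in *Kdm1a* KD by size (*Lmo2* -0.80, *Mybl2* -0.66). PU.1 targets were lowered on induction in 5 of 6 tested (*Tyrobp* -2.92, *Fcgr3* -2.79), and 3 of 7 were lowered in *Cbfa2t3* KD (*Fcgr3* -1.60, *Tyrobp* -1.39). In *Irf2bp2* KD, where *Spi1* itself rose, 1 of 7 was raised and 2 were lowered (*Fcgr3* -2.45, *Tyrobp* -1.46), from levels of 2.336 and 3.103 CPM. In *Kdm1a* KD 4 of 7 were higher by size (*Tyrobp* 1.16, *Ncf4* 1.04).

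For the remaining lists the background is again 5.74%, 22.5%, 22.9% and 27.2% of all genes in *Cbfa2t3*, *Irf2bp2* and *Kdm1a* KD and induction. Among other ETS factors, 1 of 13 was lowered in *Cbfa2t3* KD (*Elf1* at -0.52), 1 was raised and 4 lowered in *Irf2bp2* KD, 3 were higher (*Elf4* 1.08) and 2 lower in *Kdm1a* KD, and 3 of 14 were lowered on induction, a share below the background, with *Etv5* at -1.82 in *Irf2bp2* KD and -3.16 on induction. *Etv4* was also below control in *Irf2bp2* KD, *Kdm1a* KD and induction, from control means of 0.8866, 0.6543 and 2.408 CPM. The MYC network of 9 tested genes had 0, 1, 2 and 2 members raised in *Cbfa2t3*, *Irf2bp2* and *Kdm1a* KD and induction, and none lowered (*Mxd3* 0.82 in *Irf2bp2* KD, *Mxd1* 1.22 and *Mxd4* 0.58 in *Kdm1a* KD, *Mxd3* 1.23 on induction). MYB relatives had 1 of 5 lowered in *Irf2bp2* KD (*Mybl1* -0.53) and lower in *Kdm1a* KD (*Mybl2* -0.66), and 1 raised and 2 lowered on induction. MEIS1 partners had 2 of 7 lowered in *Irf2bp2* KD (*Meis2* at -1.13, *Pbx4* at -0.53), 1 higher and 2 lower in *Kdm1a* KD (*Pbx2* -1.09), and 1 raised on induction (*Pbx3*, from 26.49 to 59.05 CPM). Progenitor genes had 1 of 4 raised and 1 lowered in *Cbfa2t3* KD (*Hlf* 0.64, *Kit* -0.82), 2 lowered in *Irf2bp2* KD and 2 lowered on induction, with *Ikzf2* at -2.07 and -3.02 in the latter pair, and 2 higher and 1 lower of 5 in *Kdm1a* KD (*Gfi1* from 0.08179 to 1.135 CPM, *Bmi1* at -0.77). No gene of these lists was called in *Gfi1b* KD.

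The genes whose pattern over the 21 libraries was most like each factor were ranked by Pearson's r of log2 CPM less the control mean of the same table, over 11053 genes. These points share libraries and control means, so r is a description. The 3 genes most like *Myc* were *Rrp9* (r = 0.988), *Thg1l* and *Tamm41*, and those most like *Myb* were *Lars* (0.979), *Ggct* and *Vwa7*. For *Meis1* they were *Fcgr3* (0.984), *Chd3* and *Vim*, and for *Spi1* they were *Arhgef10l* (0.981), *Orai2* and *Slc5a6*. *Lyl1* was followed by *Preb* (0.955), *Dhrs13* and 2310011J03Rik, and *Runx1* by *Sh3tc2* (0.948), *Fech* and *Ier5*. *Gata2* was followed by *Dus3l* (0.94), *Slc15a4* and *Zdhhc16*, and *Fli1* by *Serf2* (0.919), *Idh1* and *Psmb9*. Among the factors *Myb* and *Myc* were the closest pair (0.928), and *Runx1* ran opposite to *Myb* (-0.662) and *Meis1* (-0.644).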

How the data were processed

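Per the labels and the study's methods, the authors mapped RNA-Seq reads with TopHat2 to mm9 and deposited raw read counts per RefSeq gene and RPKM values. ChIP-Seq reads were mapped with Bowtie, and the authors deposited a site list with a fold enrichment ratio over IgG and a p-value per site. The deposited columns of the authors' own DESeq2 fold changes and p-values were not used, nor were 4 per-sample columns of the site list. The 3 class codes of the list carry no legend, and class sizes decided which code stands for ETO2-only, shared or IRF2BP2-only sites. Counts were tested with edgeR 4.0.16 in R 4.3.3 (TMM, filterByExpr, glmQLFit) within each table, after the code was tested on simulated data. DESeq2 1.42.0 was an alternative, with low-count filters, no limit on fold, the replicate block and leaving out libraries. *Kdm1a* KD used log2 CPM with prior count 2. Differences between KDs used 1 fit of 14175 genes. Sites and motifs used Python 3.11.15, pandas 2.3.3 and numpy 2.4.6, with GENCODE gene positions on mm9. The composite's gap was first set to 7 or 8 bases and changed to the study's own 6 to 8 after those values had been seen. Replicate numbers were not treated as pairs. The members, the lists and the rule for named genes (the 9 factors, the knocked-down genes, up to 2 called genes per list and comparison with the largest change, and the 3 most alike genes) were chosen with earlier results of these data known. Some marker genes of the lists are not reported here.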

Additional observations from a re-analysis of the deposited data

Results flagged for a closer look

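Of 40 differences between hairpins or KDs tested for the factors, 5 had an adjusted p under 0.05 (edgeR). This count is by p alone, without the size limit, and has no share of all genes at that limit beside it. It does not cover the fits with only the libraries compared, which called further factors. Between the hairpins sh3 and sh2 against *Cbfa2t3*, the change of *Myb* differed by 0.28, that of *Gata2* by -0.43 and that of *Meis1* by -0.43. The change of *Fli1* in *Kdm1a* KD exceeded that in *Cbfa2t3* KD by 0.94, and that of *Meis1* in *Kdm1a* KD exceeded that in *Irf2bp2* KD by 2.0. Only these last differences, of *Fli1* and *Meis1* between KDs, were also past the size limit and so called, where 5.5% and 9.21% of all genes were called. Between hairpins no factor and 3.71% of all genes were called. Both differences that involve *Kdm1a* KD rest on its single control library. Only the 4 *Cbfa2t3* KD libraries, both hairpins together, were enough to be tested for a lone extreme library. These 9 groups of 4 values, 1 per factor, gave 0 such cases. All other groups, among them *Gfi1b* KD and induction, were too small for this test.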

How the results depend on the processing

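Of 687 recomputed values, 22 counts moved by over 1.5 times, 15 changes reversed, 3 no longer passed and 26 newly passed, and the others kept direction and call, except that *Meis1* in *Kdm1a* KD, not called at 0.495, came to 0.52 without KD replicate 1 and was past the size limit. Genes changed numbered 1423 in *Cbfa2t3* KD and 5810 in *Irf2bp2* KD without the limit on fold, and 1145 with sh3 alone. In *Gfi1b* KD they numbered 59 with DESeq2 and 411 without the filter. For differences between KDs, only the libraries of the KDs compared gave 2130, 68, 3379 and 4278, and DESeq2 gave 656, 985, 1428 and 2048 (*Irf2bp2* or *Gfi1b* or *Kdm1a* against *Cbfa2t3*, then *Kdm1a* against *Irf2bp2*). The cause of these shifts was not tested. Leaving out 1 library gave 279 (without control 1) to 797 genes and 1 to 2 factors in *Cbfa2t3* KD, 2557 to 3022 and 5 to 6 in *Irf2bp2* KD, 3546 to 3601 and 4 to 5 in *Kdm1a* KD, 0 to 3148 and 0 to 4 in *Gfi1b* KD, 1522 (without non-induced 2) to 3369 and 4 to 6 on induction, and 353 to 588 between hairpins. Without *Cbfa2t3* control 2 there were 360 genes, and without non-induced 1 or induced 2 there were 1626 and 1772. Reversals were of changes that had not been called. *Gata2* in *Cbfa2t3* KD became -0.0027 without the filter, -0.23 with sh3 alone, -0.011 with a term per hairpin, -0.091 without control 1 and -0.14 without sh2 replicate 2 (leaving out 1 library gave up to 0.11), and *Myb* became 0.0074 with sh3. In *Gfi1b* KD, *Myc*, *Gata2* and *Spi1* became 0.22, 0.25 and 0.20 without replicate 1 (-0.87, -0.49 and -0.59 without replicate 2), and *Meis1* -0.17 without replicate 2 (0.54 without replicate 1). *Lyl1* on induction became -0.47 and -0.16 without non-induced 2 or induced 1 (0.94 without non-induced 1). Between hairpins *Runx1*, *Lyl1* and *Spi1* became -0.022, -0.028 and 0.073 (first 2 up to 0.23 and 0.11). *Gata2* on induction passed without the filter (-1.0), with the replicate block (-0.97) and without induced 1 (-1.63). With the replicate block, counts of changed genes were 632, 2834, 0, 3916 and 581 in *Cbfa2t3* KD, *Irf2bp2* KD, *Gfi1b* KD, induction and between hairpins, and of factors 2, 6, 0 and 6. Deviations of same-numbered libraries from their group means, not the levels themselves, were correlated over genes between groups of 2 replicates. The r was 0.118 to 0.252 between the *Cbfa2t3* groups, 0.0251 in *Irf2bp2* KD, 0.00153 in *Gfi1b* KD and 0.196 on induction. No paired analysis was possible for *Kdm1a* KD because its groups share 1 number. A composite gap of 7 or 8 bases, added after seeing the data, gave 10 of 71 and 1932 of all sites in place of 11 and 2283.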
